A study of Mus musculus with 16 samples.

Results

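The 10 genes described here are the gene for the cell cycle inhibitor p21 (Cdkn1a), the gene for the transcription factor p53 (Trp53) and 8 genes that p53 is known to switch on: Mdm2, Ccng1, Bax, Phlda3, Trp53inp1, Zmat3, Sesn1 and Sesn2. They were given by name, and each matched 1 of the 40472 genes in the deposited count table. All 10 passed the filter on low counts, as did 13614 genes of the table in all. Cdkn1a had at most 7 counts in any library of uninjured kidney and Phlda3 at most 3, so both passed only through the injured libraries. RNA-seq after poly(A) selection was run on whole kidneys of male C57BL/6 mice aged 12 weeks, in 4 groups of 4 libraries. Group NV was uninjured and given vehicle, and group NP was uninjured and given PJ34, a small molecule that inhibits poly(ADP-ribose) polymerases. Groups IRV (vehicle) and IRP (PJ34) underwent ischemia reperfusion, in which blood flow to the kidney is stopped and then restored. No genetic change is given for any group, and the labels do not state the day of collection. The labels number the replicates without saying that each came from its own animal, so the spread behind each p-value may be partly technical. Because whole kidney was sequenced, fewer cells of a type and less RNA per cell cannot be told apart.

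The p53 protein is kept low in unstressed cells by the ubiquitin ligase Mdm2, which p53 itself induces, so that the pair form a feedback loop. After DNA damage or other stress p53 is stabilised, largely without a change in its mRNA, and activates genes that stop the cell cycle, repair DNA, detoxify oxidants or trigger cell death. The best known arrest gene is Cdkn1a, whose product blocks cyclin-dependent kinases. Cdkn1a can also be switched on without p53, for example by growth-inhibitory cytokines. In the kidney p21 is induced after ischemia and is a common marker of arrested or senescent tubular cells. The question here was whether Cdkn1a rose after injury with or without the other p53 targets, and whether PJ34 altered that.

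The libraries differed in depth. Totals were 4963638 to 6169748 counts in 6 deep libraries, namely all of IRP plus IRV 3 and 4, while the 10 shallow libraries held 973812 to 1659983. The sets also differed in the level of 1719 olfactory, vomeronasal, taste and trace-amine receptor genes, which kidney is not known to use in bulk. Their mean level per gene was 0.140 to 0.291 CPM (counts scaled to a fixed library total) in the deep libraries and 3.62 to 6.40 CPM in the shallow ones. Levels here are CPM after TMM scaling, a method that sets the bulk of genes equal between libraries. Proximal tubule markers summed to at least 3395 CPM in each library.

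The start regions of members serve as a view of the sequence that p53 could meet. RefSeq holds such windows for 8 of the 10 members in build GRCm38.p6, from 250 bases before to 50 after a start; Trp53inp1 and Zmat3 have no entry. They are shown for Cdkn1a and Phlda3, the 2 members with the largest change below, and for Mdm2, which did not pass the test. Capitals mark matches, on either strand, to the p53 half-site consensus (10 bases), to GGGCGG and to TATAAA. The half-site is found in 8.36% of the 32851 windows of this length, GGGCGG in 35.7% and TATAAA in 13.6%. Cdkn1a has 2 annotated starts, on the plus strand at chr17:29090729-29091028 and chr17:29093519-29093818; Phlda3 lies on the plus strand at chr1:135765835-135766134 and Mdm2 on the minus strand at chr10:117710709-117711008.
Cdkn1a, first start: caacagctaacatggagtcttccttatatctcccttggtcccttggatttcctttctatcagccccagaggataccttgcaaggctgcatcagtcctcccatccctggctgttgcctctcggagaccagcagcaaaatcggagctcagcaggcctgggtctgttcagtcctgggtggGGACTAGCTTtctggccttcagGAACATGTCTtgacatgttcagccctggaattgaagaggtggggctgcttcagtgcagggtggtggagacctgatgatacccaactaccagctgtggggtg
Cdkn1a, second start: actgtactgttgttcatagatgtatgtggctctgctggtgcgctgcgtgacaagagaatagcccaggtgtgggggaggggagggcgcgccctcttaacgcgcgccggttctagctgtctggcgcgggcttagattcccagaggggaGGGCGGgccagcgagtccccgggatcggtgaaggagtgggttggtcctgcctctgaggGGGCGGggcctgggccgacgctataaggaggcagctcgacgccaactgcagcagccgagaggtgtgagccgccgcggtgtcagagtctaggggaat
Phlda3: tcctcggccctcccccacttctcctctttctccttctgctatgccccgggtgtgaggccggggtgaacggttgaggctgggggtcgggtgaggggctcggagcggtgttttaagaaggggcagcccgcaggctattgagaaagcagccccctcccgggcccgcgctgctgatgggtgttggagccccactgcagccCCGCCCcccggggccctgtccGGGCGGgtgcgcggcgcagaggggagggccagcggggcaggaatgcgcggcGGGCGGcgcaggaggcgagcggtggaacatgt
Mdm2: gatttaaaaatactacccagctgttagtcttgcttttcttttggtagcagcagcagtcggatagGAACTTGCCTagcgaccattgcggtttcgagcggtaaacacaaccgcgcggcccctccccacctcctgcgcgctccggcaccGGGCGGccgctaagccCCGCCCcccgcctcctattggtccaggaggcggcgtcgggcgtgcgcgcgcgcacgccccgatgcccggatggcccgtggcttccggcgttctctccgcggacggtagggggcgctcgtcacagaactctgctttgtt
The window of the first Cdkn1a start held 2 half-site matches, beginning 73 and 51 bases before the start, and the window of the second held 2 GGGCGG matches and no half-site. The Phlda3 window held 3 GGGCGG matches and no half-site. The Mdm2 window held 1 half-site and 2 GGGCGG matches. A match in these letters is a description that was not checked against known sites, and sites outside the windows are not seen. Counts per gene do not tell which Cdkn1a start was used.

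IRV was set against NV to see what injury did to these genes without the inhibitor. Cdkn1a, Trp53, Phlda3 and Trp53inp1 rose, Ccng1 fell slightly, and the other 5 did not pass the test. In this comparison 27% of all 13614 genes were called, 15.9% higher and 11.1% lower (edgeR, adjusted p under 0.05), beside 4 and 1 of the 10 members. The median log2 change was 0.37 over the members and -0.03 over all genes. The 4 members that rose had no overlap between the groups, which held in the higher direction for 15.1% of all genes. Of these, Cdkn1a and Phlda3 were tested only because their injured levels passed the filter. With no filter on low counts their log2 changes were 2.08 and 2.15 (adjusted p = 0.00012 and 0.0055, edgeR), where the all-gene median was -0.32.

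Cdkn1a had 2.56, 6.70, 4.50 and 5.41 CPM in NV replicates 1 to 4 and 21.6, 18.8, 14.1 and 14.2 CPM in IRV replicates 1 to 4. Every IRV library was thus above every NV library, and the shallow IRV libraries (replicates 1 and 2) were above the deep ones. The means were 4.79 ± 1.74 and 17.2 ± 3.69 CPM (SD, n = 4), a 3.44-fold rise or 1.78 ± 0.39 on the log2 scale (SE; adjusted p = 0.0029, edgeR). The NV level rests on 22 counts over 4 libraries (exact Poisson 95% interval 13.8 to 33.3, counting error only).

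Trp53 had 15.4, 6.70, 13.5 and 13.9 CPM in NV and 30.8, 17.6, 35.1 and 29.2 CPM in IRV. NV replicate 2 was the lowest of its group and IRV replicate 2 of its own, and the groups did not overlap. The rise was 1.20 ± 0.25 on the log2 scale (adjusted p = 0.0020). A processed pseudogene of Trp53 had 8 counts over all 16 libraries, against 58 Trp53 counts in NV and 534 in IRV.

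Phlda3 encodes a membrane-bound protein that competes with the kinase Akt for phospholipids. It had 0.855, 1.91, 2.70 and 1.54 CPM in NV and 8.22, 6.08, 6.25 and 5.50 CPM in IRV. The log2 change was 1.85 ± 0.47 (adjusted p = 0.0074), and the NV level rests on 8 counts in all. Trp53inp1, a nuclear and autophagy protein that promotes p53 activity, had 39.3, 35.4, 36.9 and 42.5 CPM in NV and 64.8, 54.1, 75.4 and 61.5 CPM in IRV. This is the best measured of the 4 rises, with 179 NV counts, a log2 change of 0.74 ± 0.14 and an adjusted p of 0.00095. The groups did not overlap for either gene.

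Mdm2, the ligase of the feedback loop, had 39.3, 45.0, 38.7 and 49.4 CPM in NV and 39.1, 41.3, 46.2 and 45.4 CPM in IRV. The groups covered the same range, with a log2 difference of 0.01 (95% interval -0.26 to 0.28; adjusted p = 0.96). Ccng1, a cyclin-like protein that recruits a phosphatase to Mdm2, had 211.2, 205.6, 239.5 and 214.7 CPM in NV and 161.4, 178.7, 158.0 and 184.9 CPM in IRV. All IRV libraries were below all NV libraries, and the log2 change was -0.35 ± 0.12 (adjusted p = 0.044). That call held in 2 of the 8 fits that left out 1 library, and scaling by library totals alone gave 0.15.

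The remaining members did not pass. Zmat3, an RNA-binding protein that acts on splicing, differed by 0.35 (95% interval -0.02 to 0.72). Sesn1 and Sesn2 encode sestrins, which limit oxidant damage and mTORC1 activity, and differed by 0.39 (-0.03 to 0.81) and 0.29 (-0.15 to 0.74). Bax, which opens the mitochondrial outer membrane in apoptosis, differed by -0.07 (-0.99 to 0.85). Its levels scattered from 3.60 to 17.9 CPM in NV and from 1.03 to 14.1 CPM in IRV, the lowest being a single count in IRV replicate 1. These intervals include no change, and those of Zmat3, Sesn1, Sesn2 and Bax also include a rise of more than 0.7.

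**Figure D1:**
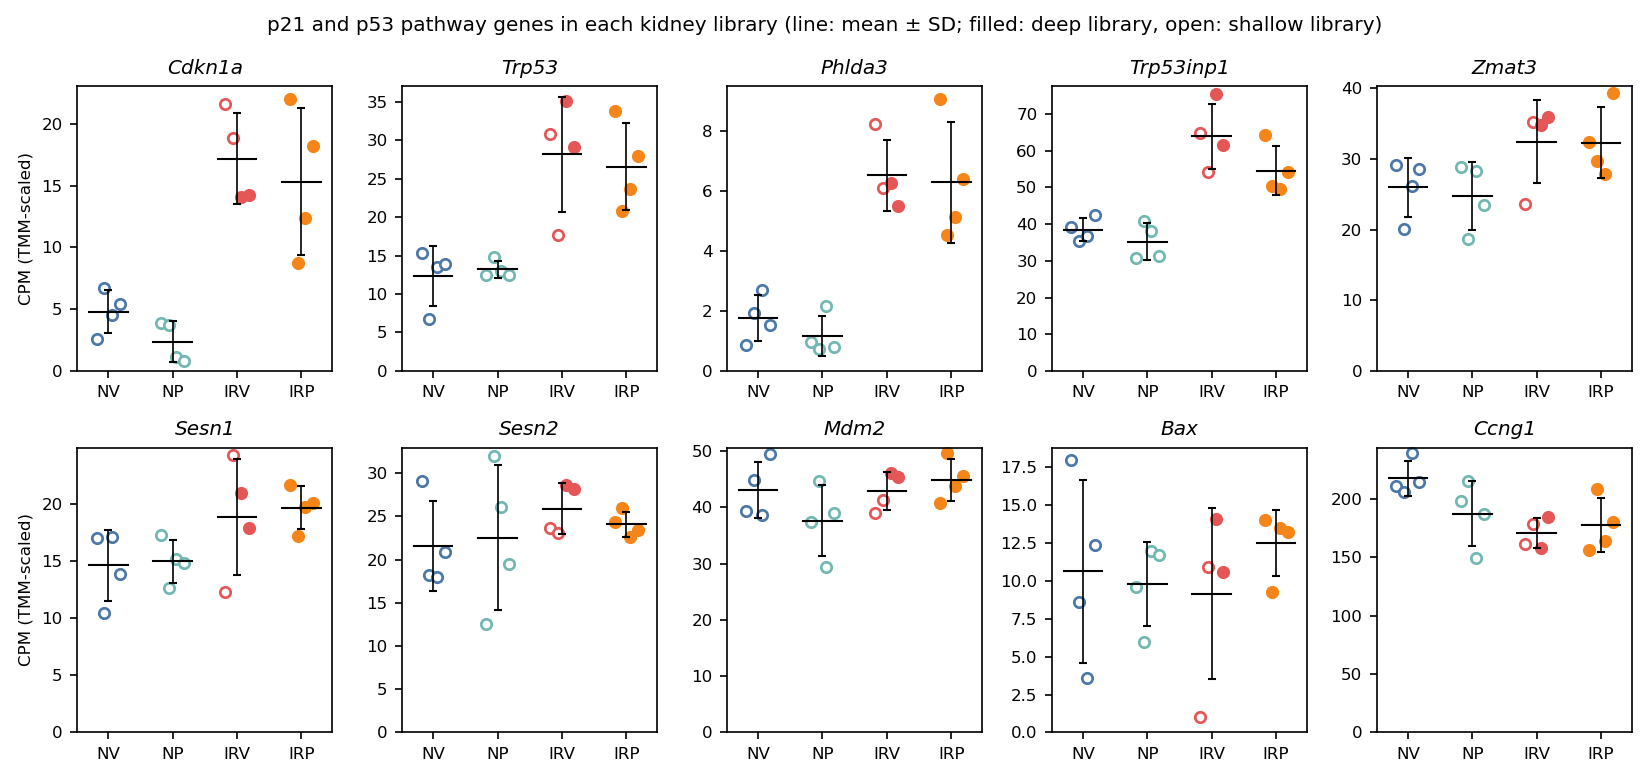
Level of each of the 10 genes in the 16 libraries, in CPM after TMM scaling, by group (4 libraries each), with the mean and SD; filled points are deep libraries and open points shallow ones. In the first 4 panels (Cdkn1a, Trp53, Phlda3, Trp53inp1) all injured libraries lie above the uninjured libraries of the same treatment, and in the other 6 panels injured and uninjured groups overlap, by little for Sesn1 and Zmat3 under PJ34, except that Ccng1 lies lower in IRV than in NV.

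The comparison of IRP with NP asked the same under PJ34. It set other libraries against each other, but all 16 libraries shared 1 fit, so the filter, the scaling and the estimate of spread were common to both. The same 4 members rose and none fell, where 43.6% of all genes were called, 19.6% higher and 24% lower. Cdkn1a had 3.84, 3.72, 1.09 and 0.781 CPM in NP and 22.0, 8.70, 12.3 and 18.2 CPM in IRP. The IRP libraries spread more than 2-fold, with replicate 2 lowest, but all lay above the NP libraries. The log2 change was 2.67 ± 0.44 (adjusted p = 0.00026), and NP held 11 Cdkn1a counts over its 4 libraries (exact Poisson 95% interval 5.49 to 19.7).

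Trp53 went from 12.5, 14.9, 13.1 and 12.5 CPM in NP to 33.8, 20.8, 23.6 and 27.9 CPM in IRP, a log2 change of 1.00 ± 0.24 (adjusted p = 0.0030). Phlda3 went from 0.961, 0.744, 2.17 and 0.781 CPM to 9.06, 4.53, 5.14 and 6.39 CPM, a change of 2.47 ± 0.50 (adjusted p = 0.00093) from 5 counts in NP. Trp53inp1 went from 30.8, 40.9, 38.1 and 31.2 CPM to 64.3, 50.4, 49.6 and 54.1 CPM, a change of 0.63 ± 0.14 (adjusted p = 0.0016). In none of these genes did the groups overlap, which held in the higher direction for 19.6% of all genes, and IRP replicate 1 was the highest library for each.

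Mdm2 had 29.4 to 44.6 CPM in NP and 40.7 to 49.6 CPM in IRP, a log2 difference of 0.24 (95% interval -0.02 to 0.51; adjusted p = 0.13). Ccng1 differed by -0.08 (-0.34 to 0.17), Sesn2 by 0.08 (-0.35 to 0.51) and Bax by 0.37 (-0.53 to 1.27). Zmat3 differed by 0.40 (0.04 to 0.76) and Sesn1 by 0.41 (-0.002 to 0.81), with adjusted p of 0.070 and 0.10. Both fell just short of the threshold in the direction of the 4 genes that passed.

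**Figure D2:**
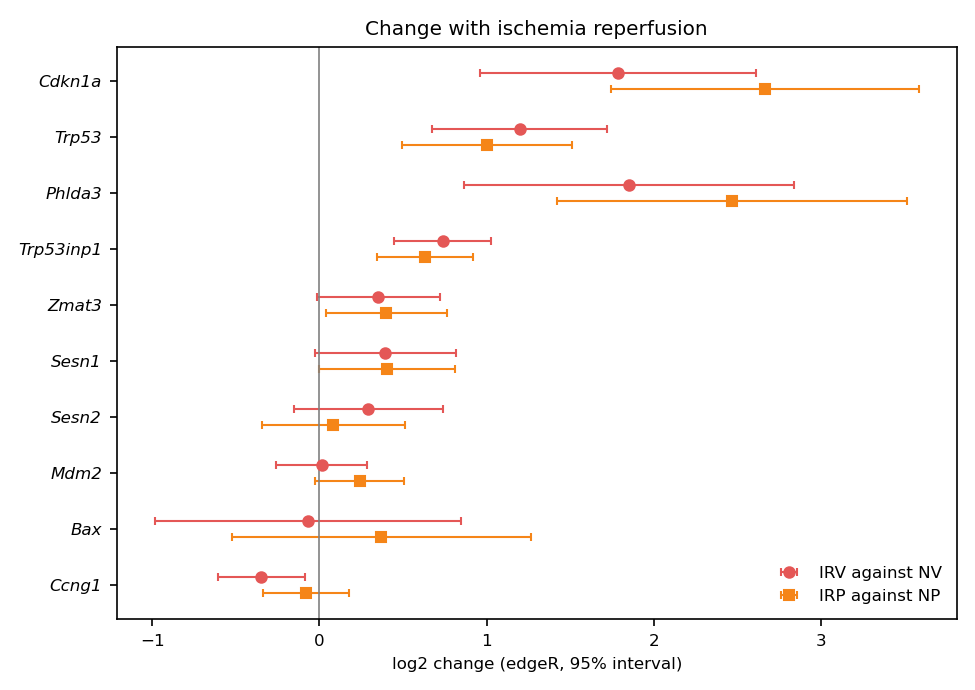
Log2 change with injury for the 10 genes, from edgeR with the 95% interval, for IRV against NV (circles) and IRP against NP (squares). The upper 4 genes lie to the right of 0 in both comparisons, and the interval of Mdm2 covers 0 in both.

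The level of Cdkn1a relative to the feedback genes was described by the ratio of counts within each library, which does not depend on scaling between libraries. The log2 ratio of Cdkn1a to Mdm2 was -3.12 ± 0.45 in NV and -1.34 ± 0.43 in IRV (SD, n = 4), a difference of 1.78. The ratio was -3.97 ± 0.86 in NP and -1.63 ± 0.69 in IRP, a difference of 2.33. Relative to Ccng1 the differences were 2.13 and 2.66. In each of these 4 tests no injured library overlapped an uninjured one, and the exact permutation p was 0.0286, two-sided, the smallest that 70 assignments allow, and 0.0286 after adjustment over the 4 tests. Neither partner had risen in the tests above, Ccng1 had been called lower in IRV, and Cdkn1a already lay apart between the groups. These differences and p-values therefore largely restate the rise of Cdkn1a without its scaling, and are no separate support for it. Ratios to Trp53, Phlda3 or Trp53inp1, which rose too, were not tested.

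**Figure D3:**
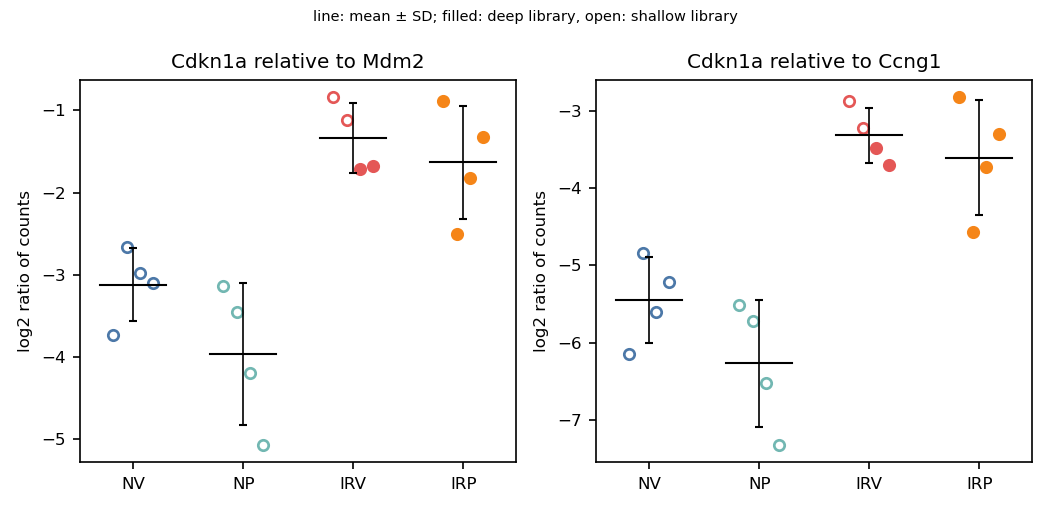
Log2 ratio of Cdkn1a counts to Mdm2 counts (left) and to Ccng1 counts (right) in each library, with the mean and SD of each group of 4; filled points are deep libraries and open points shallow ones. The ratios in NV and NP lie between -5.07 and -2.66 for Mdm2, and those in IRV and IRP between -2.50 and -0.84.

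How many members rose depended on the scaling and on the filter. When libraries were scaled by their totals alone, the all-gene median moved from -0.03 to 0.49 for IRV against NV and from -0.01 to 0.57 for IRP against NP. On that scale 8 members were higher in IRV and 9 in IRP, none lower, among them Mdm2 at 0.53 ± 0.17 and 0.82 ± 0.17. The 4 rises reported above exceeded the shift of the median in both comparisons, at 1.26 or more for IRV and 1.23 or more for IRP. Mdm2 exceeded it by much less than any of the 4. Over all genes the split then became 5716 higher and 246 lower for IRV, and 7012 higher and 1778 lower for IRP. With TMM scaling but no filter, edgeR also called Zmat3 in IRV (0.67, adjusted p = 0.04), where the all-gene median was -0.32. In IRP the unfiltered fit also called Mdm2 (0.68, adjusted p = 0.0041), Zmat3 (0.83, 0.0028) and Sesn1 (0.84, 0.006). The all-gene median there was -1.08, with 5805 of 40472 genes higher and 10928 lower.

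The library sets were examined because NP lay wholly in the shallow set and IRP wholly in the deep one. Injury and set therefore cannot be told apart within IRP against NP. The set term below was estimated from the IRV libraries only and carried over to that comparison. In a fit that also held the set as a term, Cdkn1a differed by 2.06 ± 0.46 in IRV (adjusted p = 0.0064) and 3.17 ± 0.61 in IRP (0.0083), and Phlda3 by 1.99 ± 0.55 (0.022) and 2.74 ± 0.69 (0.034). Trp53inp1 passed in IRV (0.61 ± 0.18, adjusted p = 0.027) but not in IRP (0.41 ± 0.22, 0.36). Trp53 passed in neither, at 0.89 ± 0.32 (0.068) and 0.54 ± 0.37 (0.49). Within the shallow libraries alone, IRV replicates 1 and 2 against NV gave 2.04 ± 0.40 for Cdkn1a (adjusted p = 0.0037), 0.59 ± 0.18 for Trp53inp1 (0.042) and 0.88 ± 0.34 for Trp53 (0.10), while Phlda3 was below the filter. The limma-voom test gave changes of like size for Cdkn1a, 1.61 and 2.61, without a call (adjusted p = 0.14 and 0.13), and likewise for Phlda3, 1.55 and 2.14 (0.19 and 0.12).

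**Figure D4:**
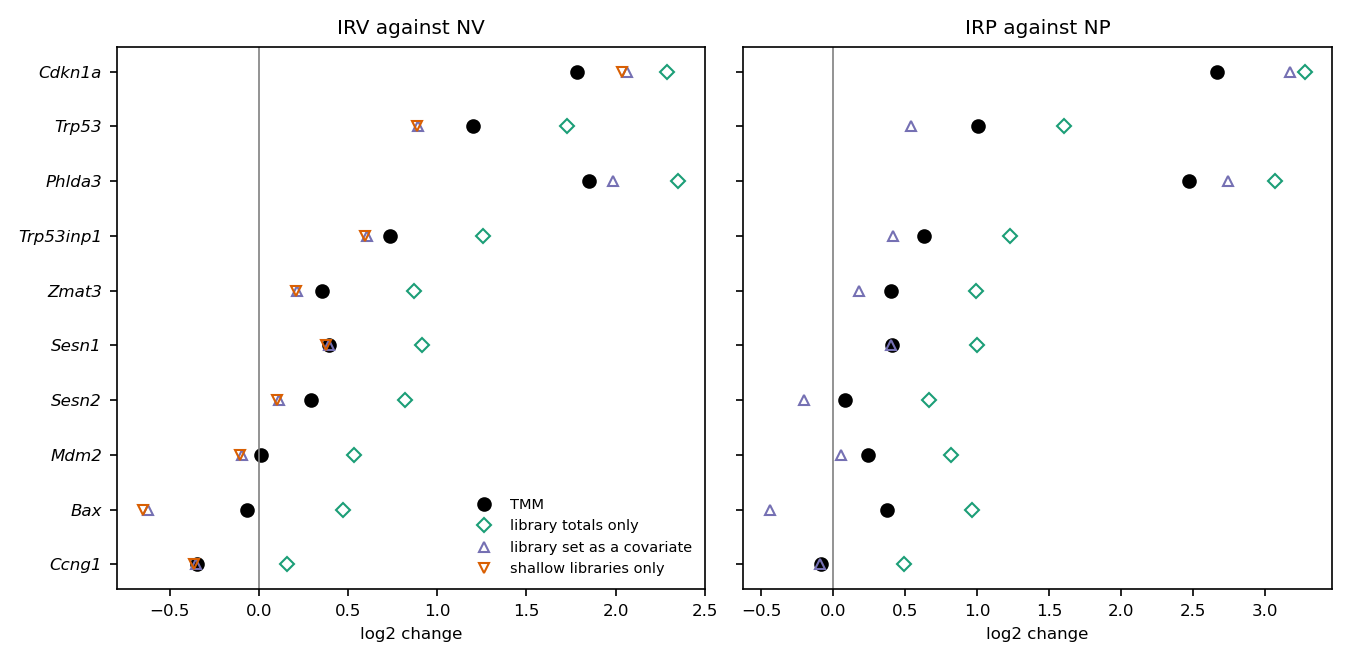
Log2 change of each gene with injury under 4 treatments of the data: TMM scaling (filled circles), library totals only (diamonds), the library set as a covariate (upward triangles) and the shallow libraries only (downward triangles, for IRV against NV, without Phlda3). The covariate was estimated from the IRV libraries only. Cdkn1a lies at 1.78 or more throughout, while Mdm2, Bax, Sesn2 and Ccng1 change side between treatments in at least 1 panel.

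The uninjured levels of Cdkn1a and Phlda3 lay among those of the sensory receptor genes. In the 8 NV and NP libraries, 14.6% to 75.1% of receptor genes had a lower level than Cdkn1a and 14.6% to 44.5% a lower level than Phlda3. In the shallow IRV libraries Cdkn1a exceeded 96.2% and 97.8% of them, and Phlda3 77.8% and 83.4%. In the 6 deep libraries Cdkn1a exceeded 100% of them, rounded to 3 digits. The receptor level moved with the library set, and its part in the uninjured Cdkn1a level was not tested.

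**Figure D5:**
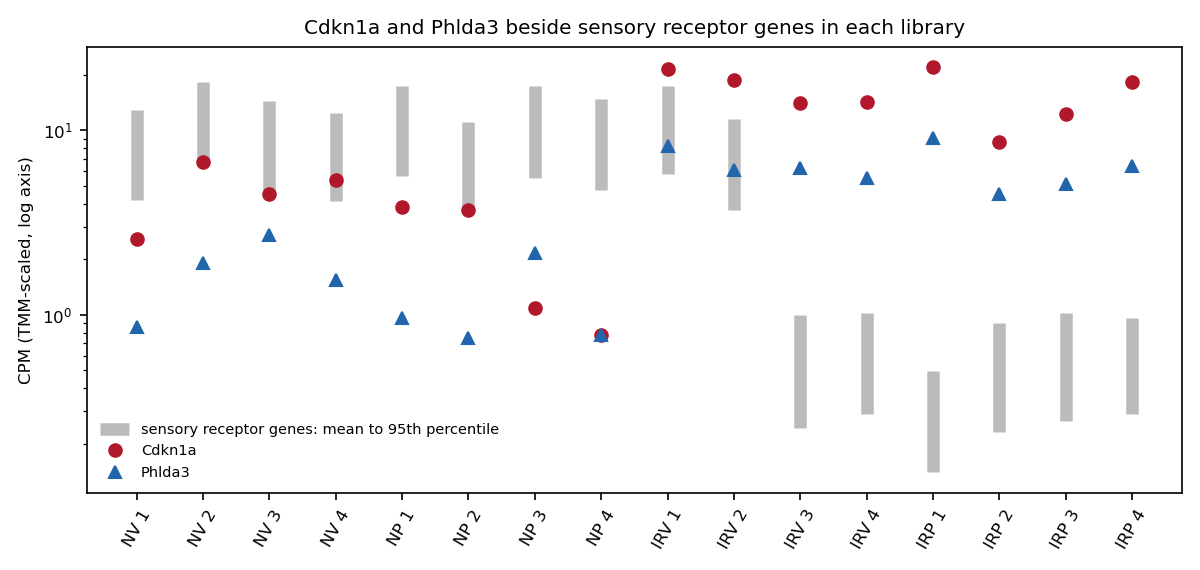
Cdkn1a (circles) and Phlda3 (triangles) in each library, in CPM on a log axis, beside the span from the mean to the 95th percentile of 1719 sensory receptor genes (grey bars). In NV and NP both genes lie within or below the grey bars, in IRV replicates 1 and 2 Cdkn1a lies above them, and in the 6 deep libraries both genes lie above them.

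IRP was set against IRV to see whether PJ34 changed these genes in the injured kidney. No member passed, and none of all genes did (0% called; 1832 genes had an unadjusted p under 0.05 in edgeR, and DESeq2 called 5 higher and 1277 lower genes, none of them a member). Cdkn1a averaged 15.3 ± 5.93 CPM with PJ34 and 17.2 ± 3.69 CPM with vehicle, a log2 difference of -0.10 (95% interval -0.73 to 0.52). Trp53 differed by -0.11 (-0.52 to 0.31), Phlda3 by -0.02 (-0.79 to 0.76) and Trp53inp1 by -0.24 (-0.49 to 0.02). Without IRV replicate 3, edgeR called 9 genes higher and 1451 lower, and without IRV replicate 4, 13 and 1447, none of them a member. All 10 members had overlapping groups, as did most genes (1.51% lay apart higher and 1.92% lower). The interval for Cdkn1a leaves room for a fall of 0.73 or a rise of 0.52, and within the deep libraries the value was 0.12.

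The comparison of NP with NV asked whether PJ34 acted without injury, and again no member passed (0% of all genes called; 501 with an unadjusted p under 0.05 in edgeR; DESeq2 called 3 higher and 1 lower, none of them a member). Cdkn1a was 2.36 ± 1.65 CPM in NP and 4.79 ± 1.74 CPM in NV, a log2 difference of -0.98 (95% interval -2.16 to 0.19) that rests on 11 and 22 counts. NP replicates 1 and 2 were within the NV range and replicates 3 and 4 were below it, and all 10 members had overlapping groups (1.28% of all genes lay apart higher and 1.15% lower). Trp53 differed by 0.09 (-0.53 to 0.70), Phlda3 by -0.63 (-1.94 to 0.67) and Trp53inp1 by -0.13 (-0.45 to 0.19). The interaction, the injury change under PJ34 minus that under vehicle, was 0.88 for Cdkn1a (-0.45 to 2.21; adjusted p = 0.70), so the larger rise in IRP was within error. No member passed the interaction (0% of all genes called; 1550 with an unadjusted p under 0.05 in edgeR, while DESeq2 called 1 higher and 21 lower; without IRV replicate 3, edgeR called 5 and 414; none was a member).

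A wider list of 43 further p53 targets was described in the same way, and 33 of them were tested. In IRV 10 were higher and 5 lower, with a median of 0.31, and in IRP 12 were higher and 3 lower, with a median of 0.34. Counts for this list and those below stand beside all-gene shares of 15.9% higher and 11.1% lower in IRV and of 19.6% higher and 24% lower in IRP, and with so few genes a list nothing particular to a list is read from them. Genes low in uninjured kidney, such as Sfn (16 counts over NV) and Epha2 (17), were tested only because their injured libraries passed the filter. Counts among tested genes can therefore lean towards rises, in these lists and among all genes. By role, arrest genes had 4 of 6 tested higher in IRV and 3 in IRP, with none lower. Btg2, an antiproliferative factor, rose by 1.11 ± 0.25 and 0.90 ± 0.24, and Gadd45a, a stress sensor that binds Pcna and Cdk1, by 1.16 ± 0.26 in IRV. Gadd45a did not pass in IRP (0.37 ± 0.24, adjusted p = 0.22, edgeR). Sfn (stratifin), which holds cells before mitosis, rose by 1.42 ± 0.39 and 1.08 ± 0.38, and the kinase Plk2 by 0.84 ± 0.27 and 0.95 ± 0.26.

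Of 11 tested death genes 3 were higher in IRV and 4 in IRP, and none was lower (all genes: 15.9% and 19.6% higher). Dram1, a lysosomal protein of autophagy, rose by 1.23 ± 0.34 and 0.92 ± 0.33. Apaf1, the core of the apoptosome, rose by 1.11 ± 0.31 and 0.78 ± 0.30, and Pmaip1, the BH3-only protein Noxa, by 0.99 ± 0.29 and 0.76 ± 0.29. Repair, metabolic and other targets went both ways, with 3 higher and 5 lower of 16 in IRV (all genes: 15.9% higher and 11.1% lower) and 5 higher and 3 lower in IRP. Cd82, a tetraspanin, rose by 1.16 ± 0.23 and 1.12 ± 0.22, Sulf2, a sulfatase of heparan sulfate, by 0.83 ± 0.14 and 0.53 ± 0.14, and the receptor Epha2 by 1.43 ± 0.44 and 1.97 ± 0.47. Lower in IRV were Rps27l at -0.90 ± 0.23 and the thiamine transporter Slc19a2 at -0.73 ± 0.18. With the library set as a covariate, 6 of the 33 targets were called in either direction in IRV, where 1080 of all 13614 genes were called higher and 835 lower, and none in IRP, where 343 and 107 were.

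Of 22 genes that act on p53 or are its relatives, 17 were tested. In IRV 5 were higher and 1 lower, and in IRP 5 higher and 2 lower (all genes: 15.9% and 11.1%, then 19.6% and 24%). The acetyltransferases Kat5 and Crebbp rose by 0.95 ± 0.23 and 0.30 ± 0.11 in IRV and by 0.75 ± 0.22 and 0.52 ± 0.11 in IRP, and Ppp1r13b, which steers p53 to death genes, by 0.75 ± 0.22 and 0.69 ± 0.21. Trp53bp1 rose by 0.60 ± 0.17 in IRV and did not pass in IRP (0.28 ± 0.16, adjusted p = 0.17, edgeR). Cop1, a ubiquitin ligase for p53, was lower, at -0.66 ± 0.23 and -0.87 ± 0.22.

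Among the other inhibitors of cyclin-dependent kinases, 3 of 6 were tested and 2 rose. Cdkn1c (p57) rose by 1.03 ± 0.17 in IRV and 0.83 ± 0.16 in IRP, and Cdkn1b (p27) by 0.65 ± 0.16 and 0.84 ± 0.15. Neither had an overlap between groups in either comparison, which held in the higher direction for 15.1% of all genes in IRV and 19.6% in IRP. Cdkn2a, Cdkn2b and Cdkn2d were below the filter. Cdkn2b (p15) had 3 counts over NV, 3 over NP, 48 over IRV and 93 over IRP, or 0.671 ± 0.904, 0.666 ± 0.907, 3.21 ± 1.32 and 3.405 ± 1.31 CPM, and was not tested. Cdkn2a had 1, 1, 2 and 8 counts.

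Of 14 partners of p21, 12 were tested. In IRV 4 were higher and 1 lower, and in IRP 5 were higher (all genes: 15.9% and 11.1%, then 19.6% higher). Ccnd2 rose by 1.04 ± 0.22 and 1.31 ± 0.21, Cdk4 by 0.74 ± 0.19 and 0.82 ± 0.19 and Cdk6 by 0.91 ± 0.18 and 0.60 ± 0.18, while Ccnd1 was lower in IRV at -0.72 ± 0.15. Rbl1, a pocket protein of cell cycle repression, rose by 0.84 ± 0.22 in IRP. Of 13 cell cycle genes that p21 represses through the DREAM complex, 4 were tested, of which 3 were called higher in IRV and 2 in IRP, none lower (all genes: 15.9% and 19.6% higher). The untested genes were below the filter, and Foxm1 (6 counts over NV, 92 over IRV) passed it only through injured libraries. Mki67 rose by 1.46 ± 0.29 and 1.56 ± 0.29 and Top2a by 1.32 ± 0.40 and 1.63 ± 0.42, and Foxm1 by 2.18 ± 0.64 in IRV. Foxm1 in IRP (0.71 ± 0.54, adjusted p = 0.31) and the mitotic cyclin Ccnb1, named after its values were seen, at -0.01 ± 0.60 in IRV and -1.31 ± 0.66 in IRP (adjusted p = 1 and 0.12), did not pass. No gene of these lists was called in a comparison of PJ34 with vehicle.

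Markers of several other cell types moved with injury beside the p53 genes. All 7 macrophage markers, 6 of 7 fibroblast markers and all 5 podocyte markers rose in both comparisons. The macrophage markers summed to 60.2 to 84.6 CPM in NV, 60.5 to 121.8 in NP, 441.2 to 756.3 in IRV and 339.2 to 872.5 in IRP. The fibroblast markers summed to 168.3 to 345.7 CPM in NV, 269.3 to 394.7 in NP, 1307.3 to 2057.6 in IRV and 925.2 to 2441.1 in IRP. All 6 markers of injured tubules rose, and all 6 of proximal tubule were lower, their sum going from 7613.8 to 9535.7 CPM in NV to 3428.1 to 4895.1 in IRV. No marker of these 5 lists was at 0 in a whole group. The remaining marker lists were mixed. Of 6 endothelial markers 2 were higher in IRV and 3 in IRP, and of 6 distal nephron markers 2 were lower in each. Of 3 lymphocyte markers tested 1 was higher in each, and 1 was lower in IRP. Of 2 neutrophil markers tested none was called in IRV, and in IRP 1 was higher and 1 lower. The part of any of these cell types in the change of Cdkn1a or of the other members was not tested.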

How the data were processed

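RNA was sequenced from 16 kidney libraries, 4 in each of 4 groups taken from the sample labels. The authors deposited 1 table of estimated counts per gene, given as whole numbers. Per the submitters' processing notes, FastQC 0.11.3, Trim Galore 0.6.6, Salmon 1.3.0, DESeq2 1.30.1 and the genome GRCm39 were used; settings are not given in the sources used here. Salmon shares reads between similar transcripts, which could move counts between a gene and its copies. Of 40472 gene identifiers, 40276 matched a symbol. Library totals were 973812 to 6169748, which sets the counting precision of low genes. No 2 libraries of the same group were alike within sampling noise (24 pairs, lowest chi-square per degree of freedom 1.75).

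Genes were filtered with a minimum count of 10 in edgeR 4.0.16 (R 4.3.3), leaving 13614, scaled by TMM and tested with the quasi-likelihood F test in 1 fit of all 16 libraries by group, with Benjamini-Hochberg adjustment over all genes kept and a threshold of 0.05. The test was run on simulated data that held no difference between library sets. It recovered 51%, 61% and 55% of 2-fold changes for IRV against NV, IRP against NP and IRP against IRV. For 4-fold changes the shares were 87%, 83% and 85%, with 8, 3 and 8 false calls. Ratios of counts within a library used a pseudocount of 0.5 and an exact two-sided permutation test. Intervals are at 95%. Alternatives were limma-voom (limma 3.58.1), DESeq2 1.42.0, other scalings, no filter, a replicate block, the library set (total above or below 3000000 counts) and leaving out each library. The members and the gene lists were chosen with earlier results of these data known. Besides all members, up to 5 genes of each other list were named, those past the threshold in an injury comparison with the smallest p. Genes named beyond this rule include Ccnb1 and the untested Cdkn2a, Cdkn2b and Cdkn2d. Cell type markers were described by counts and sums. Genes listed under 2 identifiers were left out.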

Additional observations from a re-analysis of the deposited data

Results flagged for a closer look

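Among 40 groups of 4 libraries (10 genes in 4 groups), 3 held a library far from the other 3 by Dixon's criterion at its 95% critical value, which chance meets in about 1 in 20 groups. Bax in IRP replicate 2 was 9.24 CPM, where the other IRP libraries had 13.3 to 14.0 CPM. Phlda3 in NP replicate 3 was 2.175 CPM, which is 2 counts, where the others had 0.744 to 0.961 CPM. Zmat3 in IRV replicate 1, the shallowest library, was 23.64 CPM, where the others had 34.8 to 35.9 CPM.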

How the results depend on the processing

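Cdkn1a, Trp53, Phlda3 and Trp53inp1 kept their direction in both injury comparisons under every alternative run in which they were tested, and their calls in all 8 fits that left out 1 library of the groups compared. Low counts limit Cdkn1a and Phlda3 in uninjured kidneys. Of the 10 members, 8 were called in IRV against NV with library totals only, 3 with limma-voom, 3 with the library set as a covariate and 2 within the shallow libraries; in IRP against NP the numbers were 9 with totals, 7 without a filter, 2 with limma-voom and 2 with the covariate. Further targets called in IRV against NV were 6 with the covariate and 5 within the shallow libraries; in IRP against NP they were 23 with totals, 7 with limma-voom, 0 with the covariate, and 7 (without IRP replicate 1 or 4) to 14 when 1 library was left out, with 9 and 8 without NP replicates 1 and 3. All-gene calls moved too. In IRV they were 5716 higher and 246 lower with totals, 1575 and 3324 with limma-voom, 1080 and 835 with the covariate. Within the shallow libraries 848 and 881 of 12892 genes were called. In IRP they were 7012 and 1778 with totals, 1835 and 3296 with limma-voom, 343 and 107 with the covariate. Without a filter 5805 and 10928 of 40472 were called in IRP. Without IRP replicate 1 the IRP calls were 2224 and 2936, and without replicate 4, 1978 and 3312. Cdkn1a by limma-voom was 1.61 and 2.61 (adjusted p = 0.14 and 0.13). For each change named here the cause was not tested.

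Signs turned as follows. With library totals only, IRV against NV gave Ccng1 0.15 and Bax 0.47, IRP against NP gave Ccng1 0.49 (called, adjusted p = 0.0081), Slc19a2 0.37, Rps27l 0.062 and Ccnd1 0.37, and IRP against IRV gave Cdkn1a 0.021 and Phlda3 0.096. Without a filter, Bax in IRV against NV was 0.28, IRP against NP gave Ccng1 0.35, Slc19a2 0.22 and Ccnd1 0.24, IRP against IRV gave Cdkn1a 0.024 and Phlda3 0.11, and the interaction of Trp53inp1 was 0.017. Bax in IRV against NV was 0.20 by limma-voom. With the library set as a covariate, Mdm2 in IRV against NV was -0.10, IRP against NP gave Bax -0.44, Sesn2 -0.20 and Cop1 0.14, and IRP against IRV gave Cdkn1a 0.13 and Phlda3 0.11. Within 1 set, Mdm2 in IRV against NV was -0.11 and IRP against IRV gave Cdkn1a 0.12 and Phlda3 0.11. Phlda3 in IRP against IRV was 0.016 by DESeq2 and 0.079 by limma-voom, and Mdm2 in IRV against NV was -0.0615 with only the groups compared.

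Leaving out 1 library gave ranges across 0, none called, for Mdm2 (-0.10 to 0.051) and Bax (-0.42 to 0.23) in IRV against NV, Ccng1 (-0.26 to 0.0027) and Sesn2 (-0.18 to 0.34) in IRP against NP, Cdkn1a (-0.34 to 0.057), Trp53 (-0.26 to 0.011) and Phlda3 (-0.25 to 0.091) in IRP against IRV, Trp53 in NP against NV (-0.11 to 0.21) and the interaction of Trp53 (-0.34 to 0.0011). Same-numbered libraries of NV and IRV correlated at -0.13 to 0.26 and those of NP and IRP at -0.01 to 0.11, so the numbers were not taken as pairs. With the replicate block, 5 members were called in IRV against NV and 4 in IRP against NP, and Cdkn1a was 1.80 (adjusted p = 0.0037) and 2.65 (adjusted p = 0.00053).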

Other observations

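Over the 8 injured libraries, 2 of them shallow, the level of Phlda3 followed that of Cdkn1a most closely among the members (Pearson r = 0.901 on log2 CPM, described without a test), and that of Mdm2 ran opposite (r = -0.855). Of 9909 genes compared, the 5 most like Cdkn1a were Tbc1d24 (r = 0.966), Ifi204 (0.954), Nfxl1 (0.943), Pcdh7 (0.940) and Paxbp1 (0.938). The points share libraries and depth.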
